A study of Homo sapiens with 3 samples.

Results

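The RNF genes are a set of ubiquitin ligase genes named for the RING finger. The members described here are all genes of the deposited gene table whose symbol is RNF followed by a number and at most 1 letter, leaving out RNF111 (Arkadia, an siRNA target of the study) and RNF4. This rule gave 80 of 23284 genes, with 177 of 41138 isoforms. It uses names only and no measured value. The label of a RING ligase family was not checked on sequence, because no protein sequences were used here. The libraries came from HEK293T, an easily transfected line derived from human embryonic kidney. Each of 3 cultures received 1 siRNA by reverse transfection (negative control, ESRP2 or Arkadia), was not treated with TGF-beta, and was harvested 48 h after seeding; polyadenylated RNA was sequenced. There was 1 library per siRNA, so no value has a replicate error, no test was made, and every difference is one between libraries, not between conditions.

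A RING finger is a fold of cysteine and histidine residues that hold zinc and bring a ubiquitin-loaded E2 enzyme to a substrate, which is then marked for degradation or for a change of activity. RNF genes act at many places: in chromatin and at DNA breaks, in the membranes of the endoplasmic reticulum and endosomes, and in innate immune signalling. Arkadia has its RING-H2 finger at the C-terminal end and marks SKI, SKIL (SnoN) and SMAD7, which restrain TGF-beta signalling. ESRP2 is an RNA-binding protein that sets exon choice in epithelial cells.

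The values are FPKM, fragments counted per unit of transcript length and of sequencing depth, each with a lower and an upper bound from the authors' deposited tables. The interval bounds of low genes implied about 11.89, 12.31 and 8.871 M reads with control, ESRP2 and Arkadia siRNA, so the Arkadia siRNA library was the shallowest. ESRP2 itself was at 14.75, 4.271 and 21.22 FPKM, with intervals that overlapped in all comparisons and a locus shared with NFATC3. Of 7 markers of the line, such as EYA1 and NEFL, 6, 5 and 7 reached an FPKM of 1, and of 14 markers of other cell types 1, 0 and 1 did; the latter summed to 2.957, 1.755 and 3.497 FPKM, and CD3E, PECAM1 and DES were at 0 with ESRP2 siRNA and PECAM1, DCN and UMOD with Arkadia siRNA. In such RNA from whole cultures, fewer cells expressing a gene and less RNA per cell cannot be told apart.

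RNF111, the transcript that encodes Arkadia, was at 6.38 FPKM (3.15 to 9.59) with control siRNA, 7.65 (3.79 to 11.5) with ESRP2 siRNA and 1.15 (0.5 to 1.82) with Arkadia siRNA. The Arkadia siRNA library lies below both others without overlap of the intervals, at a difference of −1.78 from control on the log2(FPKM + 1) scale used for all differences here, where 0.585 is 1.5-fold, and −2.01 from ESRP2 siRNA.

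**Figure D1:**
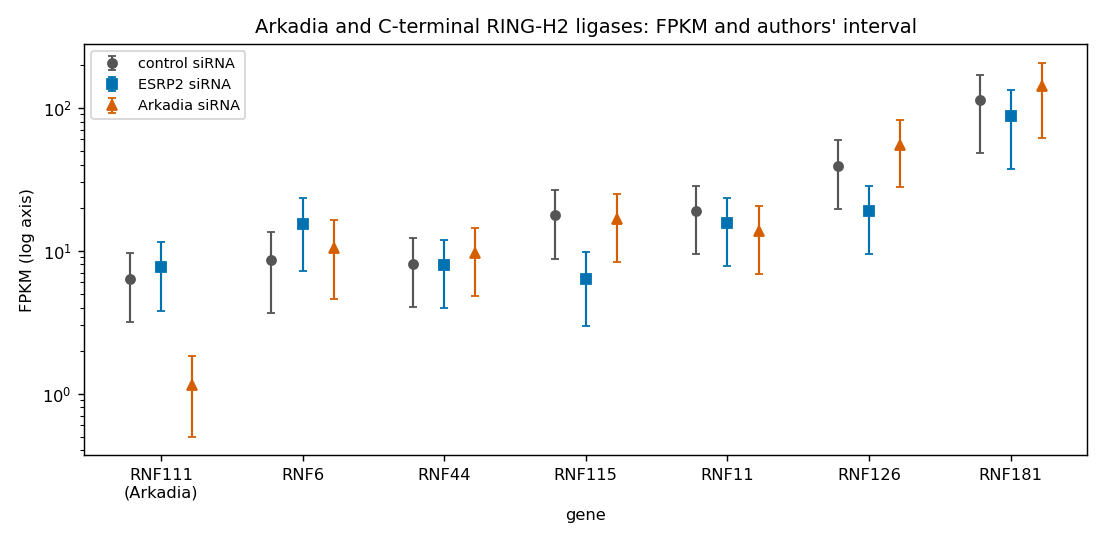
FPKM (log axis) of RNF111 and of 6 members with a C-terminal RING-H2 finger in each library; bars are the authors' intervals. RNF111 is at 1.15 FPKM with Arkadia siRNA, and RNF115 is lowest with ESRP2 siRNA, at 6.37 FPKM.

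Most members were expressed. Of the 80, 60, 59 and 59 reached an FPKM of 1 with control, ESRP2 and Arkadia siRNA, 33, 33 and 34 reached 10, and 8 reached 50 in each library. RNF148, RNF186 and RNF222 were listed at 0 in all 3 libraries, and RNF133, RNF151, RNF183 and RNF223 in 1 or 2 of them. The 10 most abundant members held 53.6%, 50.7% and 57.9% of the summed FPKM of the family. Of the 80 members, 60 reached a mean FPKM of 1, had the status OK and at least 1 isoform of 300 nt or more, and entered the counts, as did 11870 of all genes; of the other 20, 19 are RNF112, RNF113B, RNF133, RNF144B, RNF148, RNF151, RNF152, RNF17, RNF175, RNF180, RNF183, RNF186, RNF207, RNF212, RNF222, RNF223, RNF224, RNF32 and RNF39. The median FPKM of the 60 was 10.53, 12.11 and 12.82 in the 3 libraries, against 10.97, 12.06 and 10.47 over all genes that entered.

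The most abundant member was RNF181, a small RING-H2 ligase, at 112.6, 87.9 and 142.4 FPKM with control, ESRP2 and Arkadia siRNA. It was followed by RNF187, a ligase known as a coactivator of the AP-1 factor c-Jun, at 92.2, 77.6 and 126 FPKM, and by RNF167, a ligase of lysosomes and endosomes, at 74.7, 53.6 and 111 FPKM. All 3 were highest with Arkadia siRNA and lowest with ESRP2 siRNA, and their intervals overlapped between all libraries. RNF10, which ubiquitylates proteins of the small ribosomal subunit, was the steadiest of the abundant members at 62.3, 62.2 and 61.2 FPKM. RNF220, at 75.6, 62.7 and 55.4 FPKM, was highest with control siRNA, and RNF114, at 56.2, 76.4 and 67.3 FPKM, with ESRP2 siRNA.

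**Figure D2:**
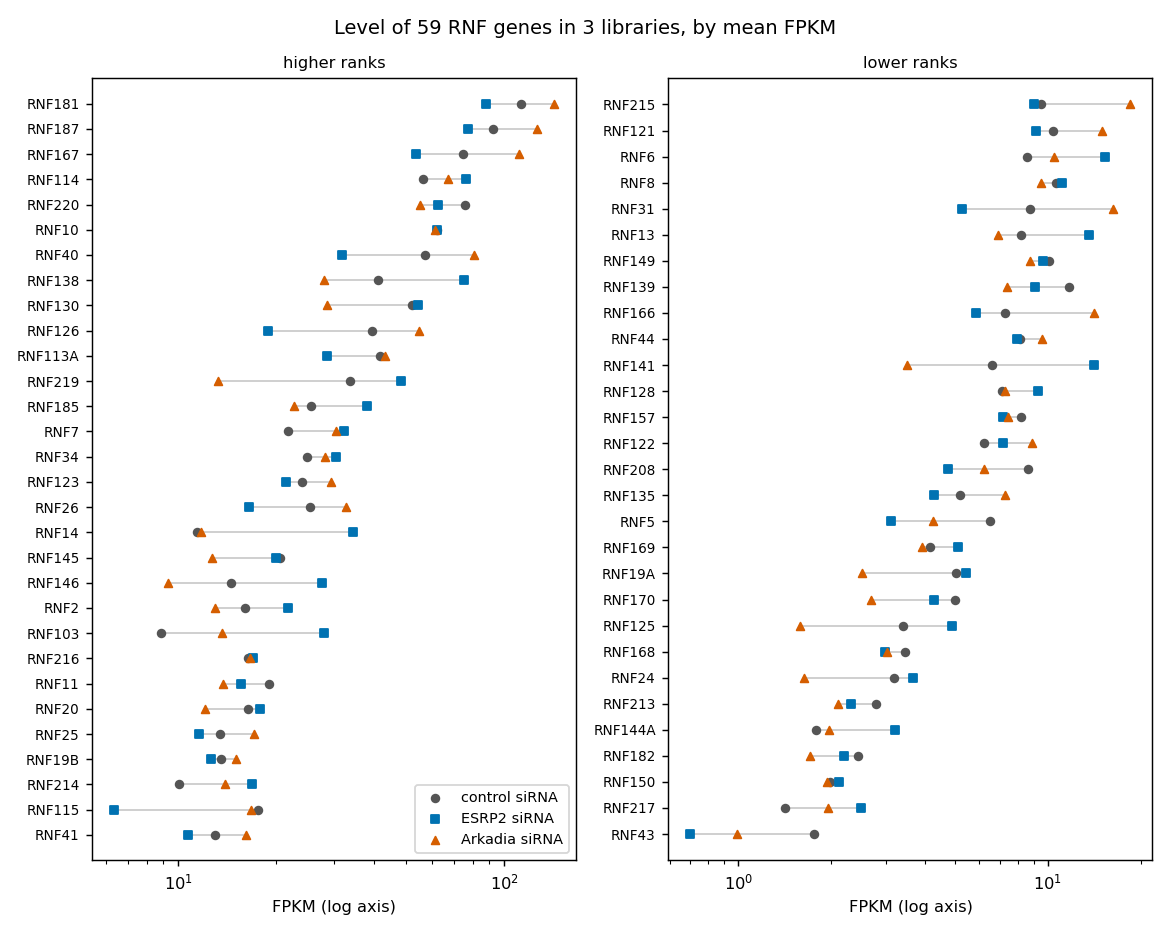
FPKM (log axis) of 59 of the 60 members that entered, in order of mean FPKM from the top of the left panel to the foot of the right panel; each point is 1 library and the grey line spans the 3 libraries. The widest spans belong to RNF141 and RNF219, and RNF10, RNF216 and RNF150 hardly differ between libraries.

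With ESRP2 siRNA against control siRNA, 9 of 60 members were higher by 1.5-fold, where 19.9% of all genes were, and 8 were lower, where 11.4% were. By 2-fold 4 members differed (7.87% of all genes), and none differed by 1.5-fold with intervals that did not overlap (1.28% of all genes). The median log2 difference was −0.03 over members and 0.12 over all genes. With Arkadia siRNA against control siRNA, 3 members were higher by 1.5-fold (9.81% of all genes) and 10 lower (11.8%); 1 differed by 2-fold (3.92%) and none with intervals apart (0.438%). The medians were −0.00 and −0.02. Both comparisons use the same control library. In the direct comparison of Arkadia with ESRP2 siRNA, which does not use it, 12 members were higher (21.2% of all genes) and 14 lower (30.8%), 12 differed by 2-fold (24.4%), and 3 had intervals apart (6.36%), with medians of −0.10 and −0.14. As shares, 13.3% of members were lower with ESRP2 siRNA and 16.7% lower with Arkadia siRNA, somewhat above those of all genes, and the other shares were below them. As another set of RING ligases, TRIM and MARCH genes (47 of 81 entered) had 5 higher and 6 lower with ESRP2 siRNA, 4 and 5 with Arkadia siRNA, and 9 and 10 in the direct comparison.

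The differences followed the GC content of the transcript. Over the 60 members, Spearman's rho between log2 difference and GC content was −0.61 for ESRP2 against control siRNA, 0.54 for Arkadia against control siRNA and 0.75 for Arkadia against ESRP2 siRNA; over 11745 genes it was −0.64, 0.56 and 0.75. These are descriptions across genes, which share their libraries and are not independent replicates. In the 20 members with the lowest GC content (36.9% to 44.4%) the median direct log2 difference between Arkadia and ESRP2 siRNA was −0.51, with 9 lower and 1 higher by 1.5-fold. In the 20 with the highest (54.1% to 66.9%) it was 0.61, with 1 lower and 10 higher. The part of GC content in the differences was not tested. To show which members stood off this trend, the median of all genes in the same decile of GC content was subtracted from each member, and that value is given below as the GC-subtracted difference.

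**Figure D3:**
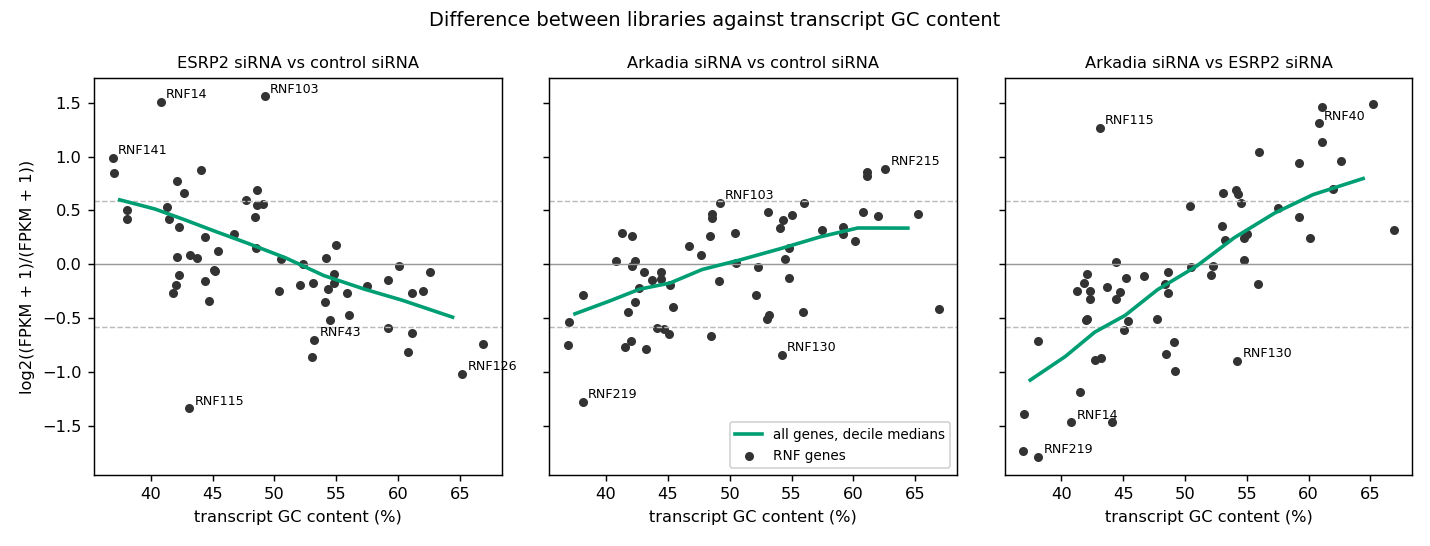
Log2 difference of 59 members (black points) against transcript GC content in the 3 comparisons, with the median of all genes in each decile of GC content (green line) and 1.5-fold (dashed lines). In the direct comparison the line runs from −1.08 in the lowest decile to 0.80 in the highest, with RNF115 far above it and RNF130 far below.

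Among the ligases with a C-terminal RING-H2 finger, none of the 7 that entered was higher or lower by 1.5-fold with Arkadia siRNA against control (9.81% and 11.8% of all genes), and 1 was higher and 2 lower with ESRP2 siRNA (19.9% and 11.4%). Nothing about the group is read from counts this small. RNF115 (BCA2; hg19 chr1:145611036-145688776), which acts in the sorting of membrane receptors, was at 17.6, 6.37 and 16.7 FPKM with control, ESRP2 and Arkadia siRNA. The ESRP2 siRNA library is the low one, at a log2 difference of −1.34 from control (interval 2.96 to 9.77 against 8.77 to 26.4, which overlap narrowly). Its close relative RNF126, which works with BAG6 on mislocalised proteins, was at 39.3, 18.9 and 54.8 FPKM, also lowest with ESRP2 siRNA, at −1.02. RNF115 has a GC content of 43.1% and RNF126 one of 65.2%, and the GC-subtracted differences were −1.75 and −0.53. RNF115 therefore went against the trend of transcripts of its composition, and RNF126 went with it.

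RNF6, a regulator of the androgen receptor, was at 8.57, 15.3 and 10.5 FPKM, higher with ESRP2 siRNA by 0.77 (0.35 after GC subtraction). RNF11, which works with HECT ligases and in the control of NF-kappa-B signalling, was at 19.0, 15.6 and 13.8 FPKM. RNF44 was at 8.12, 7.97 and 9.61 FPKM. All differences of RNF11 and RNF44 were under 1.5-fold as deposited. After GC subtraction RNF11 differed by −0.68 between ESRP2 and control siRNA, past 1.5-fold, and the other differences of both genes stayed under it.

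Of the RBR ligases, which hold a second RING and pass ubiquitin through a cysteine of their own, RNF14 (ARA54, a coactivator of the androgen receptor) differed most. It was (hg19 chr5:141346402-141369856) at 11.4 FPKM (5.29 to 17.6) with control siRNA, 34.3 (16.7 to 52.0) with ESRP2 siRNA and 11.7 (5.27 to 18.2) with Arkadia siRNA. The ESRP2 siRNA library alone is high, at a log2 difference of 1.51 from control, and the intervals overlap at their edges. RNF31 (HOIP), the catalytic subunit of the complex that makes linear ubiquitin chains, was at 8.78, 5.29 and 16.3 FPKM. It was lowest with ESRP2 siRNA (−0.64) and highest with Arkadia siRNA (0.82), and in the direct comparison, at 1.46, the intervals 2.55 to 8.02 and 8.07 to 24.4 did not overlap. The GC-subtracted differences of RNF31 were −0.30 and 0.48 from control and 0.81 in the direct comparison. RNF19A (dorfin) was at 5.07, 5.44 and 2.51 FPKM, lower with Arkadia siRNA by −0.79, while its relative RNF19B was at 13.5, 12.6 and 15.1. Their GC contents are 43.2% and 54.8%, and the GC-subtracted differences between Arkadia and control siRNA were −0.56 and 0.01, both under 1.5-fold. RNF144A, at 1.79, 3.22 and 1.97 FPKM, passed 1.5-fold upwards with ESRP2 siRNA (0.60, and 0.40 after GC subtraction). RNF216 (TRIAD3), at 16.4, 17.0 and 16.6 FPKM, was level.

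In the chromatin and DNA damage group, RNF219 (OBI1), which marks the origin recognition complex on replication origins, had the largest difference of any member between Arkadia and control siRNA. It was (hg19 chr13:79188421-79233314) at 33.8 FPKM (17.2 to 50.2) with control siRNA, 48.3 (25.0 to 71.5) with ESRP2 siRNA and 13.3 (6.58 to 20.0) with Arkadia siRNA. The Arkadia siRNA library lies below both others, at −1.28 from control, where the intervals overlap, and at −1.79 from ESRP2 siRNA, where they do not. With the GC trend subtracted these differences were −0.82 and −0.71. RNF40 and RNF20, the partners that ubiquitylate histone H2B, were at 57.1, 31.9 and 80.8 FPKM and at 16.3, 17.9 and 12.1 FPKM. RNF40 passed 1.5-fold with ESRP2 siRNA and in the direct comparison, and RNF20 in no comparison. The direct log2 difference was 1.31 for RNF40 (GC content 60.8%) and −0.53 for RNF20 (45.4%), and GC-subtracted 0.67 and −0.05. The RNF40 locus in the deposited table also holds PHKG2 and C16orf93.

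RNF2 (RING1B), the Polycomb ligase of histone H2A, was at 16.04, 21.8 and 12.9 FPKM. Its direct difference was −0.71, and 0.37 after GC subtraction, the only difference past 1.5-fold that changed its sign. RNF8 and RNF168, which act in turn at DNA double-strand breaks, were at 10.7, 11.2 and 9.50 FPKM and at 3.46, 2.98 and 3.03 FPKM, and neither differed by 1.5-fold in any comparison.

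Of the ligases with a protease-associated domain, which span endosomal or plasma membranes, RNF130 (Goliath; hg19 chr5:179382474-179499109) was at 52.0 FPKM (24.8 to 79.2), 54.4 (28.4 to 80.5) and 28.6 (13.4 to 43.9) with control, ESRP2 and Arkadia siRNA. It was low only with Arkadia siRNA, at −0.84 from control and −0.90 from ESRP2 siRNA, with overlapping intervals. Its GC content is 54.2%, a range in which the median gene was higher with Arkadia siRNA, so the GC-subtracted differences were larger, −0.98 and −1.15. RNF13 and RNF167, related ligases of the endosomal system, passed 1.5-fold in opposite directions between Arkadia and ESRP2 siRNA: RNF13 was at 8.21, 13.6 and 6.89 FPKM and RNF167 at 74.7, 53.6 and 111. Their GC contents are 42.7% and 56%, and their direct differences of −0.89 and 1.04 became −0.25 and 0.56, both under 1.5-fold. RNF149, at 10.1, 9.67 and 8.76 FPKM, was level. RNF43, which removes Frizzled receptors from the cell surface, was at 1.76, 0.701 and 0.990 FPKM. Its lower bounds are 0 in every library and its locus overlaps SUPT4H1 and BZRAP1, so its difference of −0.70 with ESRP2 siRNA is uncertain.

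Among the other membrane ligases, RNF103 (KF1; hg19 chr2:86730553-87005164), of the endoplasmic reticulum, was at 8.84 FPKM (0.0334 to 21.4), 28.0 (3.22 to 52.8) and 13.6 (0.391 to 26.8). It was high with ESRP2 siRNA, at a log2 difference of 1.56, the largest rise in value among members in that comparison. The intervals are wide and overlap, and the deposited locus is shared with RMND5A, CHMP3 and the read-through gene RNF103-CHMP3, between which reads may be split; CHMP3 was at 26.8, 21.7 and 15.5 FPKM. RNF24, a Golgi protein, was at 3.19, 3.67 and 1.63 FPKM, about 127.5, 151.5 and 48.5 reads, and was low with Arkadia siRNA (−0.67 from control). RNF145 and RNF139 (TRC8), sterol-responsive ligases of the endoplasmic reticulum, were at 20.6, 19.9 and 12.7 FPKM and at 11.7, 9.08 and 7.39 FPKM, lower with Arkadia siRNA by −0.65 and −0.60. RNF170, which turns over the IP3 receptor, was at 5.03, 4.29 and 2.69 FPKM (−0.71). The GC-subtracted differences of RNF145, RNF139 and RNF170 between Arkadia and control siRNA were −0.48, −0.43 and −0.48, all under 1.5-fold. Between ESRP2 and control siRNA they were −0.35, −0.65 and −0.60, past 1.5-fold for RNF139 and RNF170. Their intervals overlapped in all comparisons, and the RNF139 locus is shared with TATDN1.

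RNF26, which positions endosomes near the nucleus, was at 25.4, 16.5 and 32.7 FPKM, lower with ESRP2 siRNA by −0.59 (−0.26 after GC subtraction). RNF185 and RNF5, related ligases of endoplasmic reticulum quality control, were at 25.5, 38.0 and 22.7 FPKM and at 6.49, 3.12 and 4.27 FPKM. RNF5 differed by −0.86 between ESRP2 and control siRNA, but its lower bounds are 0 and its reads cannot be separated with certainty from those of the copy RNF5P1.

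In the group of RNF114, zinc-finger ligases with a ubiquitin-interacting motif, 1 of 4 members was higher and 1 lower with Arkadia siRNA against control (9.81% and 11.8% of all genes), and both were under 1.5-fold after GC subtraction. RNF166 was at 7.29 FPKM (3.01 to 11.6), 5.86 (2.27 to 9.45) and 14.1 (6.31 to 21.9), high with Arkadia siRNA by 0.86. RNF125, which marks the RNA sensor RIG-I, was at 3.40, 4.90 and 1.59 FPKM, low with Arkadia siRNA by −0.77. RNF138, which acts in the resection of DNA ends, was at 41.1, 75.0 and 28.0 FPKM, high with ESRP2 siRNA by 0.85. The GC contents of RNF166, RNF125 and RNF138 are 61.1%, 41.5% and 37%, and the GC-subtracted differences were 0.53, −0.43 and 0.25.

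Among the remaining members, RNF146 (Iduna), which recognises poly-ADP-ribose and degrades axin and tankyrase, was at 14.5, 27.6 and 9.33 FPKM, the highest value with ESRP2 siRNA (0.88) and the lowest with Arkadia siRNA (−0.59). After GC subtraction these differences from control were 0.58 and −0.41, both under 1.5-fold. RNF141 was at 6.59 FPKM (3.27 to 9.90), 14.1 (6.99 to 21.2) and 3.52 (1.64 to 5.38), with differences of 0.99 and −0.75 from control. Its direct difference was −1.74, with intervals that did not overlap, and −0.66 after GC subtraction; its GC content of 36.9% is the lowest of the 60 members. RNF215 was at 9.54, 9.06 and 18.5 FPKM, high with Arkadia siRNA by 0.89 (0.55 after GC subtraction). RNF214, at 10.1, 16.9 and 13.9 FPKM, differed by 0.69 with ESRP2 siRNA, and RNF208, at 8.65, 4.76 and 6.21 FPKM, by −0.74. After GC subtraction these were 0.49 and −0.25. Between Arkadia and control siRNA, RNF208 differed by −0.42 as deposited and by −0.76, past 1.5-fold, after GC subtraction. RNF121, at 10.4, 9.14 and 14.97 FPKM, and RNF7 (RBX2, the RING subunit of cullin ligases), at 21.7, 32.2 and 30.5 FPKM, were among the larger values with Arkadia siRNA, at 0.49 and 0.47, under 1.5-fold. RNF113A, of the spliceosome, at 41.5, 28.5 and 43.0 FPKM, RNF123 and RNF34 were under 1.5-fold in all 3 comparisons.

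The Arkadia siRNA library stood apart from both others by 1.5-fold upwards for 3 members (6.82% of all genes), RNF31, RNF166 and RNF215, and downwards for 8 (10% of all genes), RNF125, RNF130, RNF141, RNF145, RNF146, RNF19A, RNF219 and RNF24. The 3 that were higher have GC contents between 61.1% and 62.6%, and none stayed past 1.5-fold against control once the GC trend was subtracted, at 0.48, 0.53 and 0.55. Against control siRNA, RNF130, RNF219 and RNF24 stayed lower with Arkadia siRNA, RNF103 and RNF14 higher with ESRP2 siRNA, and RNF115, RNF43 and RNF5 lower with ESRP2 siRNA, under each of 7 alternatives: 2 other pseudocounts, 2 scalings, subtraction of the GC or the length trend, and summed isoforms. A mean FPKM of at least 5 would leave out RNF24, RNF43 and RNF5. In the direct comparison 4 higher members (RNF115, RNF126, RNF31 and RNF40) and 7 lower ones (RNF103, RNF130, RNF14, RNF141, RNF146, RNF219 and RNF24) stayed past 1.5-fold under these 7. The 7 are not separate support: summed isoforms moved no result, and the members kept under GC subtraction alone were the same as those kept under all 7. The share of all genes kept is not given here.

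**Figure D4:**
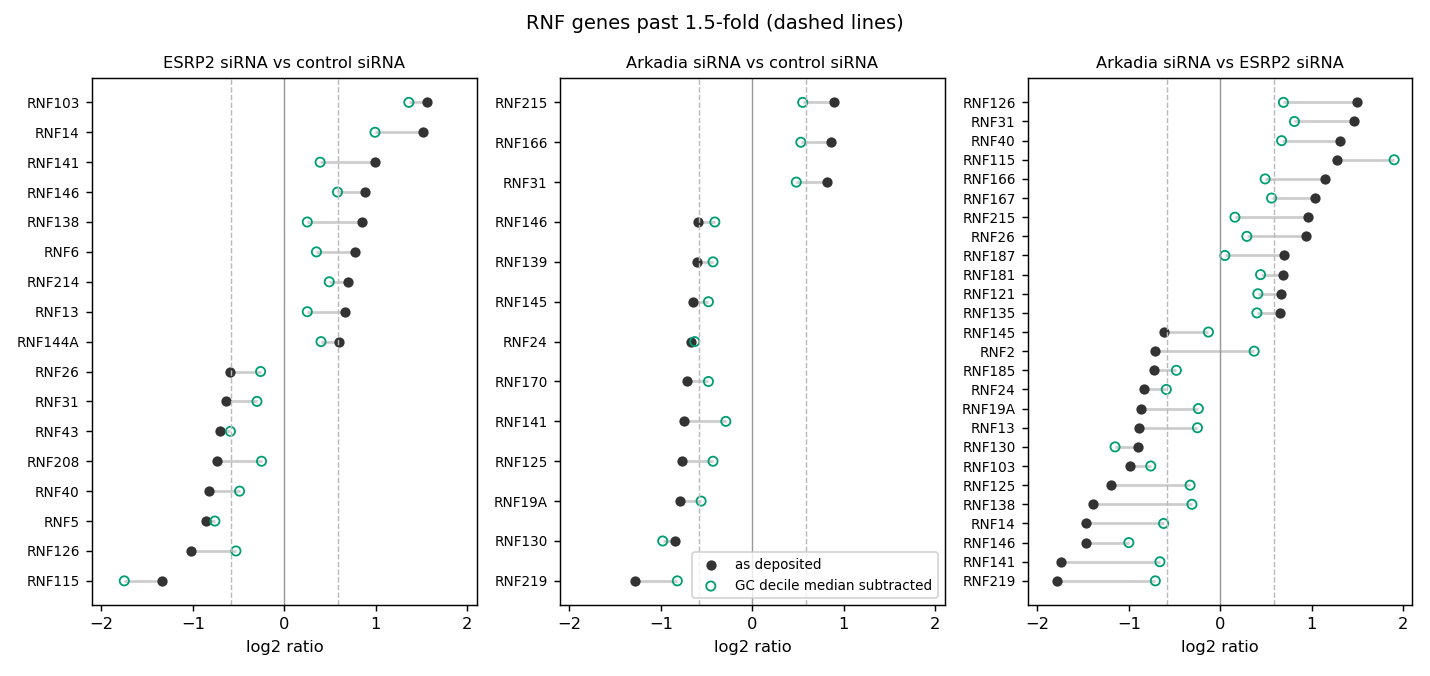
Members past 1.5-fold (dashed lines) in each comparison, with the log2 difference from the deposited FPKM (black) and after subtraction of the median of genes of like GC content (open green). Most open points lie closer to 0, and those of RNF115 and RNF130 lie farther out.

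Isoform values split a gene's reads by their fit to annotated transcripts, so they are less certain than gene values. Among 20 members with several isoforms, which together reached 5 FPKM in every library, 7 had a usage change of at least 0.25 with ESRP2 siRNA (20% of 3455 genes), 6 with Arkadia siRNA (17.1%) and 6 in the direct comparison (26.3%); a usage change is the sum of the absolute changes of isoform shares divided by 2. The members had a median of 3 isoforms and of 15.2 FPKM, against 3 isoforms and 24.0 FPKM over all genes counted. By number of isoforms, 3, 1 and 0 of 7 members with 2 isoforms passed 0.25 in the 3 comparisons (12.6%, 10.5% and 17.2% of 1688 genes), as did 1, 1 and 1 of 6 with 3 to 4 isoforms (22.3%, 19.5% and 29.8% of 1221 genes) and 3, 4 and 5 of 7 with 5 or more (37.7%, 32.2% and 46.5% of 546 genes). Of their 74 isoforms, 5 had intervals that did not overlap between ESRP2 and control siRNA (2.91% of 11429 isoforms), 2 between Arkadia and control siRNA (2.02%) and 6 between Arkadia and ESRP2 siRNA (4.91%).

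Coding stretches that tell 2 pairs of isoforms apart are printed because the shares below turn on them. They come from GENCODE 29 transcripts matched by RefSeq accession on GRCh38 (not the hg19 of the deposited tables), for pairs whose deposited lengths differ by exactly the stretch. RNF216 NM_207111 holds 171 nt that NM_207116 lacks (chr7:5741645-5741815, minus strand), a multiple of 3. RNF8 NM_003958 holds 205 nt that NM_183078 lacks (chr6:37381150-37381354, plus strand), not a multiple of 3; capitals mark 2 places where in-frame cysteine codons stand with 2 codons between them, the spacing of the cysteine pairs of its RING finger.
RNF216: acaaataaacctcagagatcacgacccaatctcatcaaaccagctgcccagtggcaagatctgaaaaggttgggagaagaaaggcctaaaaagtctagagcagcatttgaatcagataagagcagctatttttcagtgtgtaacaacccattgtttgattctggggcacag
RNF8: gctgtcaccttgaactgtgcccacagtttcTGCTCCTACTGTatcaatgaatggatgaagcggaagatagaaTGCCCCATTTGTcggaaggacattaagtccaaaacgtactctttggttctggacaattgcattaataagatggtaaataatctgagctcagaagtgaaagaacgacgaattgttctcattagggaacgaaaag

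For RNF216, the form with the 171 nt stretch was at 4.48, 9.05 and 5.15 FPKM with control, ESRP2 and Arkadia siRNA and the form without it at 11.9, 7.95 and 11.4. The share of the longer form was 27.3%, 53.2% and 31.1%, high in the ESRP2 siRNA library alone, while the gene's total did not differ by 1.5-fold; the intervals of each form overlap between libraries. For RNF8, the share of the form without the 205 nt stretch was 4.46%, 6.25% and 18.1%, a usage change of 0.14 with Arkadia siRNA against control, and its FPKM of 0.476, 0.697 and 1.72 has overlapping intervals.

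RNF14 had a usage change of 0.38 with ESRP2 siRNA, 0.26 with Arkadia siRNA and 0.41 between them. NM_183399 was at 2.34 FPKM (0.0221 to 5.19), 20.0 (6.51 to 33.5) and 2.02 (0 to 4.81), so the higher gene total in the ESRP2 siRNA library lay mostly in this form, whose share was 20.5%, 58.3% and 17.3%. NM_001201365 was at 5.82, 12.5 and 4.39 FPKM. The share of NM_183398 was 10.0%, 2.19% and 32.9%, high with Arkadia siRNA, and its intervals overlapped in all comparisons. RNF166 had a usage change of 0.28 with ESRP2 siRNA, 0.40 with Arkadia siRNA and 0.69 between them. Its form NM_178841 was at 3.21 FPKM (0.399 to 5.98), 0.931 (0 to 2.34) and 11.9 (4.59 to 19.3), and NM_001171815 at 2.47, 3.12 and 0.0364 FPKM; both were apart between Arkadia and ESRP2 siRNA.

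RNF185 had usage changes of 0.23, 0.29 and 0.47, with the noncoding NR_024212 at 7.67, 18.8 and 0.963 FPKM and the coding NM_152267 at 16.7, 17.3 and 19.5. RNF41 (NRDP1, a ligase of the ERBB3 receptor) had changes of 0.42, 0.14 and 0.36, with NM_194359 at 3.61 FPKM (0.135 to 7.31), 0 and 3.93. RNF146 changed by 0.34 with Arkadia siRNA, where the share of NM_001242851 was 44.0%, 41.8% and 17.96%. RNF214 changed by 0.26 with either siRNA, and its 2 forms differ by 1 nt in length (2695 and 2694 nt). RNF19B changed by 0.29 with ESRP2 siRNA, where NM_153341 held 47.6%, 18.2% and 31.5%.

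**Figure D5:**
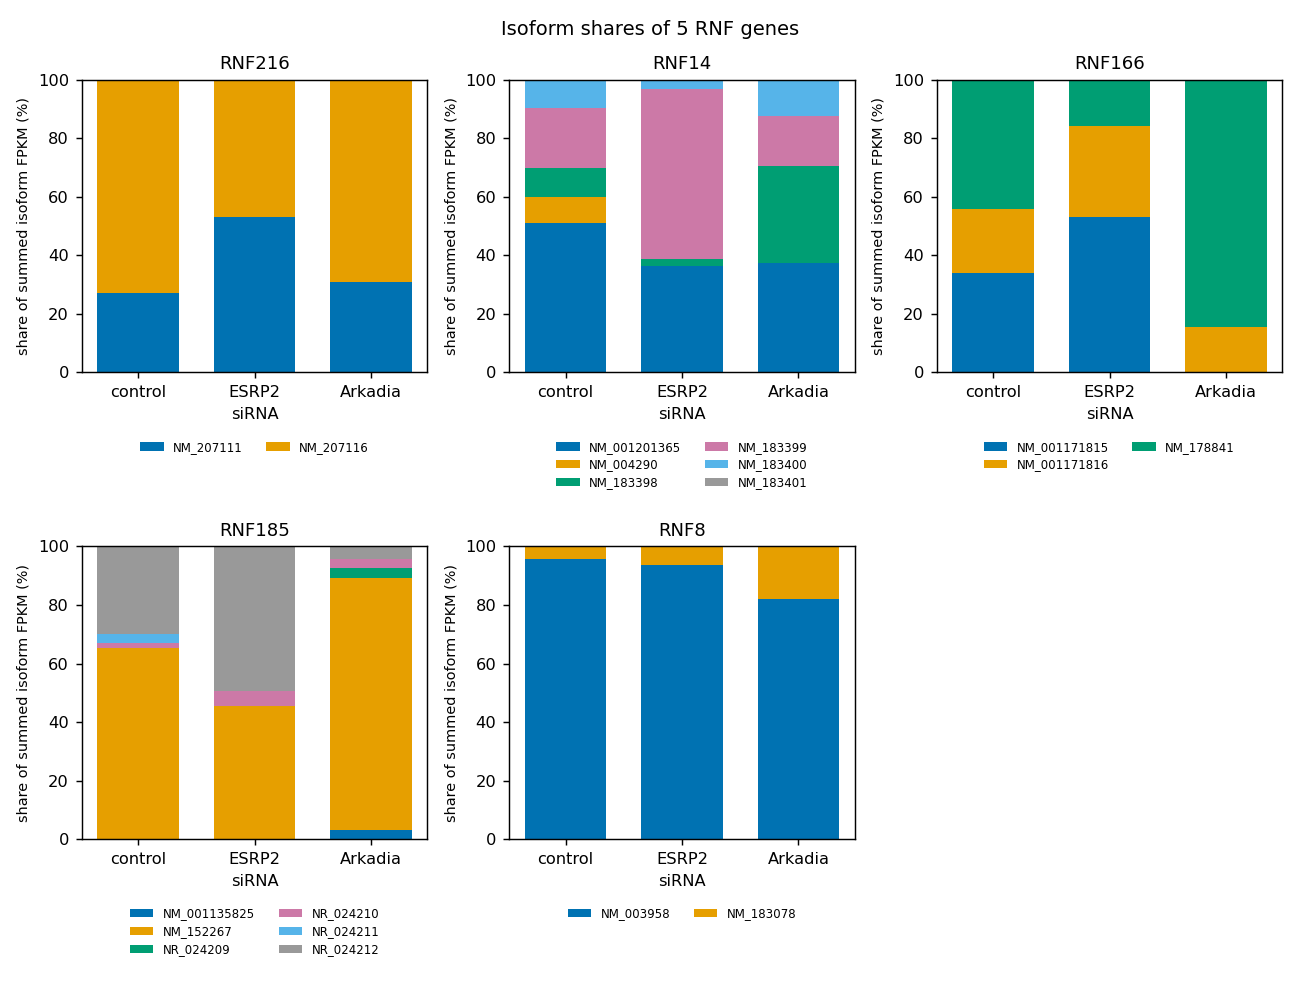
Share of each isoform in the summed isoform FPKM of 5 members, in percent, with 1 bar per library. With control, ESRP2 and Arkadia siRNA, RNF166 NM_178841 takes 44.06%, 15.88% and 84.55%, and RNF216 NM_207111 takes 27.3%, 53.2% and 31.1%.

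The other ligases and deubiquitinases of TGF-beta signalling and the known partners of Arkadia were counted beside the family. Of 19 ligases and deubiquitinases without RNF111, 6 were higher and 2 lower by 1.5-fold with ESRP2 siRNA (19.9% and 11.4% of all genes). With Arkadia siRNA 4 were higher and 4 lower (9.81% and 11.8%), and in the direct comparison 4 were higher and 8 lower (21.2% and 30.8%). RNF4, which recognises SUMO chains, was at 42.1, 91.2 and 55.8 FPKM, high with ESRP2 siRNA (1.10). RLIM (RNF12), a ligase of SMAD7, was at 6.04, 12.2 and 4.32 FPKM, also high with ESRP2 siRNA (0.90). STUB1 (CHIP), whose locus also holds JMJD8, was the most abundant of the list, at 206.8, 210.6 and 420.1 FPKM, high with Arkadia siRNA (1.02). The GC contents of RNF4, RLIM and STUB1 are 53.9%, 41.5% and 65.3%. The differences of RLIM and STUB1 run the way of the GC trend. That of RNF4 does not, as genes of its GC decile had a median of −0.105 with ESRP2 siRNA. The intervals of RNF4, RLIM and STUB1 overlapped in all comparisons. Of 10 partners and substrates, 1 was higher and 2 lower with ESRP2 siRNA (19.9% and 11.4% of all genes). With Arkadia siRNA 0 were higher and 1 lower (9.81% and 11.8%). The 1 lower with Arkadia siRNA was SKI, at 19.6, 12.4 and 7.51 FPKM (−1.27), with intervals that overlapped in all comparisons. Lower with ESRP2 siRNA were SKI (−0.62) and SMAD6, at 5.99, 1.35 and 7.44 FPKM (−1.57). The GC content of SKI is 60%, and genes of its GC decile had medians of 0.337 with Arkadia siRNA and −0.335 with ESRP2 siRNA. SKI therefore went against the GC trend with Arkadia siRNA and followed it with ESRP2 siRNA. SKIL was at 2.06, 4.30 and 1.199 FPKM and SMAD7 at 4.18, 4.10 and 6.53. In the direct comparison the intervals of USP11, SMAD6 and SKIL were apart (6.36% of all genes), at 1.51, 1.84 and −1.27. Their GC contents are 56.7%, 70.4% and 33.4%, and the medians of their GC deciles in this comparison were 0.477, 0.797 and −1.077. Each of these differences runs the way of the GC trend.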

How the data were processed

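Polyadenylated RNA of HEK293T was sequenced on an Ion semiconductor platform in 3 libraries, 1 per siRNA, per the labels' protocols. The FPKM values, with their bounds and status, were deposited by the authors in a gene and an isoform table; hg19, Cuffdiff, Cufflinks 2.1.1, Bowtie2 2.1.0 and TopHat2 2.0.10 are named in the submitters' processing notes. How libraries were scaled and whether strand was used is not given in the sources used here. The genomic positions of the deposited loci and the transcript lengths are as the file headers name them.

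From these, log2((FPKM + 1)/(FPKM + 1)) was computed with a pseudocount of 1, which understates differences of low genes, using pandas 2.3.3. Entry required a mean FPKM of 1 or more, the status OK and an isoform of 300 nt or more. Depth came from the steps of low interval bounds, with the unit within 1% for 80.9% of 2186 genes; reads are estimates and cover counting error only. GC content came from GENCODE 29 transcripts for all 60 members and 98.9% of genes. The counting was tested on simulated data.

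Members, role groups and lists were chosen with earlier results of these data known. Named members were the 8 highest by mean FPKM, the 8 largest differences each way per comparison, those with the Arkadia siRNA library apart, the 5 largest usage changes per comparison and up to 4 per role group. The likeness of RING fingers to that of Arkadia was planned but not computed, as no protein sequences were used here. RNF8, RNF44, RNF123, RNF34, RNF139, RNF144A, RNF150 and RNF168, related pairs other than those named by this rule, and the RNF8 stretch were chosen after their values were seen. The alternatives were other pseudocounts, filters, scalings, GC and length subtraction, summed isoforms, a 2-fold size and intervals that do not overlap. A few items are not reported here.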

Additional observations from a re-analysis of the deposited data

How the results depend on the processing

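No paired analysis was possible because each siRNA has 1 library; for the same reason no library was left out, and library and treatment cannot be told apart. Depth limits members under an FPKM of 1.

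Subtracting the GC trend moved most: members higher with ESRP2 siRNA fell from 9 to 2, in the direct comparison of Arkadia with ESRP2 siRNA from 12 to 6 higher and from 14 to 8 lower, members with the Arkadia siRNA library apart downwards from 8 to 4, and the direct median moved from −0.10 to 0.08. The direct difference of RNF2 reversed from −0.71 to 0.37. Median-of-ratios scaling gave 5 members higher with Arkadia siRNA in place of 3, and medians of −0.15 (ESRP2 against control) and 0.01 (direct), as the median of all genes moved from 0.12 to 0.01 for ESRP2 against control. Upper-quartile scaling gave medians of −0.19 and 0.02. Length subtraction gave 5 higher with Arkadia siRNA and medians of −0.16 and 0.10. A mean FPKM of at least 5 left 47 members, with 6 lower with Arkadia siRNA, 5 with that library apart downwards and a median of 0.15. The shares of all genes past 1.5-fold under these settings are not given here. The counts therefore show how the calls depend on the processing, and nothing particular to the members is read from them.

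At 2-fold, 2 were higher and 2 lower with ESRP2 siRNA, 0 and 1 with Arkadia siRNA, 6 and 6 in the direct comparison, and 0 and 1 with the Arkadia siRNA library apart upwards and downwards. With intervals that do not overlap the counts were 0 and 0, 0 and 0, 1 and 2, and 0 and 0. For usage, a summed FPKM of at least 10 left 11 members, with 3 changed for Arkadia against control and 3 in the direct comparison; a change of at least 0.4 left 2 for ESRP2 and 2 for Arkadia against control. Other pseudocounts, no filter, summed isoforms and no status requirement kept these counts within 1.5 times. For the other usage settings, too, the shares of all genes are not given here.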
